A study of Mus musculus with 60 samples.

Results

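The genes described here are 49 cell cycle genes in the mouse heart, taken as the rows of the count table whose Ensembl identifiers carry their symbols, out of 53700 gene rows. They comprised 22 mitotic genes (G2 and M phase), 9 S phase genes (DNA replication), 7 regulators of the G1/S transition, 5 genes of the cyclin D group (the D-type cyclins and their kinases), 5 CDK inhibitors and Wee1. All 49 passed the filter on low counts, beside 18119 genes in all. RNA was sequenced from 60 biventricular samples, 1 per heart, of male C57BL/6 mice aged 12 weeks. In dnOGAh mice, doxycycline induces a green fluorescent protein and dnOGA transgene, a splice variant of rat O-GlcNAcase that acts as a dominant negative, through a reverse transactivator (rtTA) driven by the cardiomyocyte-restricted αMHC promoter. CON mice were littermates with the rtTA transgene alone. Both genotypes received doxycycline from 10 weeks of age (1 injection of 100 μg, then in the diet) for 2 weeks, so that the drug and rtTA were common to all groups. Hearts were collected every 4 h, at zeitgeber times ZT0, ZT4, ZT8, ZT12, ZT16 and ZT20, where lights came on at ZT0 and went off at ZT12, with 5 CON and 5 dnOGAh hearts at each time. The comparisons asked whether these transcripts differed with genotype, and whether they varied over the day.

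A dividing cell copies its DNA in S phase and separates the copies in mitosis. D-type cyclins with their kinases, then cyclin E with Cdk2, inactivate the retinoblastoma protein and release E2F factors, which transcribe genes for DNA replication. Genes of G2 and mitosis are transcribed later, through the MuvB, B-Myb and Foxm1 complexes, and CDK inhibitors hold the kinases back. Adult cardiomyocytes have largely left the cycle, whereas fibroblasts, endothelial cells and immune cells of the heart can divide. Wee1 is a kinase that restrains Cdk1 before mitosis and is also a target of the circadian clock. The samples were bulk tissue, in which a change in the number of cells of a type and a change in RNA per cell cannot be told apart.

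Levels are given in CPM (counts relative to the library total, after scaling of the library totals by the trimmed mean of M-values), which do not allow for gene length and so were compared between hearts and not between genes. Libraries held between 9162900 and 82938000 counts in CON (median 18012000) and between 14540000 and 54767000 in dnOGAh (median 27846000). Oga, listed under its older symbol Mgea5, stood at 59.3 ± 6.02 CPM in CON (SD, n = 30) and 472 ± 192 CPM in dnOGAh (SD, n = 30), where counts from the rat transgene and the mouse gene were not separated. The library labelled dnOGAh ZT12 replicate 3 had 70.1 CPM of Oga, inside the range of the CON hearts (46.7 to 72.2 CPM), whereas the other dnOGAh hearts started at 182 CPM. Mitochondrial transcripts took a median of 30.7% of the counts in CON and 17.2% in dnOGAh, with 77.6% and 66.0% in replicate 4 at ZT4 of CON and of dnOGAh, respectively. These are called the 3 libraries below, and they set the lowest or highest level of many genes. Where leaving one out moved a printed limit over the 30 hearts of a genotype by over 1.5 times, the limit without it, or without the 3 libraries, is given. All 7 cardiomyocyte markers were detected in both genotypes. Their summed level was 32820 to 70435 CPM in CON (from 55450 CPM without ZT4 replicate 4) and 17993 to 87295 CPM in dnOGAh, with the highest dnOGAh value in the library labelled dnOGAh ZT12 replicate 3 and 39395 CPM next.

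RefSeq promoter windows (GRCm38.p6, 250 bases before to 50 after the start) were matched for 35 of the 49 genes. The cell cycle homology region TTTGAA, a sequence bound by MuvB complexes, was present on either strand in 11 of 16 matched mitotic promoters and in 18.1% of the promoters of all 27025 genes in the table. CCAAT was present in 15 of the 16 mitotic promoters and in 7 of 8 S phase promoters, against 37.9% of all promoters. The E2F sequences TTTGGCGC, TTTCCCGC and TTTCGCGC, searched together on both strands, were present in 4 of the 8 S phase promoters and in 1.91% of all promoters. They were also in 2 of 4 G1/S promoters, 1 of 4 CDK inhibitor promoters and 1 of 16 mitotic promoters, and in no matched promoter of the cyclin D group. The E-box CACGTG, the sequence of the clock factors, was in none of the 16 mitotic promoters, against 7.24% of all promoters. It was in 1 of 8 S phase promoters, in 2 of 3 in the cyclin D group, and in no matched G1/S or CDK inhibitor promoter. No window was matched for Wee1, whose promoter was therefore not searched. A match is a description of the letters in the window and not evidence of a bound site. The windows below are those with a match and the highest mean level among the mitotic and the S phase genes. Those of Cenpa and Mki67 both carry the TTTGAA sequence. The first pair has TTTGAA in capitals, and the second pair has the E2F sequences in capitals, including an overlapping pair on opposite strands in Mcm6 (TTTGGCGC and the complement of TTTCGCGC).
Cenpa promoter, chr5:30666636-30666935, plus strand: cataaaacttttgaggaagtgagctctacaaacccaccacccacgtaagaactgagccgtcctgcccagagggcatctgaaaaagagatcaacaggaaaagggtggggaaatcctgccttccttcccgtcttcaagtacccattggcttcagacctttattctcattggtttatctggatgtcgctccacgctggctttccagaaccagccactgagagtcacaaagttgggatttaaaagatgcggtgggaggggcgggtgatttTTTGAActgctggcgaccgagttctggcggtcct
Mki67 promoter, chr7:135716330-135716629, minus strand: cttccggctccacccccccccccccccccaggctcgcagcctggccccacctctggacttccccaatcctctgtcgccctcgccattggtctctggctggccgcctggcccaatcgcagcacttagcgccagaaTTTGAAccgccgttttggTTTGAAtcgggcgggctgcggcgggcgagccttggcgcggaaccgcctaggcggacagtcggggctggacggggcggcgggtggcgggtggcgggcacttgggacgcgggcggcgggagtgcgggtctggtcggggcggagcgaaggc
Mcm6 promoter, chr1:128359656-128359955, minus strand: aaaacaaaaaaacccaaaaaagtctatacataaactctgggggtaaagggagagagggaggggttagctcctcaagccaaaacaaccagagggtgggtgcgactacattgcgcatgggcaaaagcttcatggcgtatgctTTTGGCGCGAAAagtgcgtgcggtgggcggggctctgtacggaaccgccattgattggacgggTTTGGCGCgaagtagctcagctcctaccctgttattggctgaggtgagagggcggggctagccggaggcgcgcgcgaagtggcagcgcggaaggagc
Mcm7 promoter, chr5:138171834-138172133, minus strand: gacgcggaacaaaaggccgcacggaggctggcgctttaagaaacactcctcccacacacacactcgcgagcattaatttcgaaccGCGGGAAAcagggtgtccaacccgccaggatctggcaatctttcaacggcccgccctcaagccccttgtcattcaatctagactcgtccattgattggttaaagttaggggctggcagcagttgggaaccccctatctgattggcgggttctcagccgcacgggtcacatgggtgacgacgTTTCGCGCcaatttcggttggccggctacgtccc

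Over the 6 times together, 44 of the 49 genes were higher in dnOGAh than in CON hearts, 3 were lower (Ccnd2, Cdkn1b and Cdkn1c), and 2 did not pass the test (Cenpa and Ccnd3). The rise covered every S phase gene and every G1/S regulator, and 21 of the 22 mitotic genes. Genotypes were compared as the mean of the 6 dnOGAh groups against the mean of the 6 CON groups by quasi-likelihood in edgeR, with Benjamini-Hochberg adjustment over all 18119 genes and an adjusted p under 0.05. By this rule 38.8% of all genes tested were higher and 31.9% were lower. The median log2 fold change was 1.79 over the 49 genes and 0.06 over all genes tested, and 35 of the 49 were over 2-fold higher, against 17.8% of all genes. The calls were the same when any 1 of the 60 libraries was left out. The p-values measure the spread between hearts of a genotype and time.

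**Figure D1:**
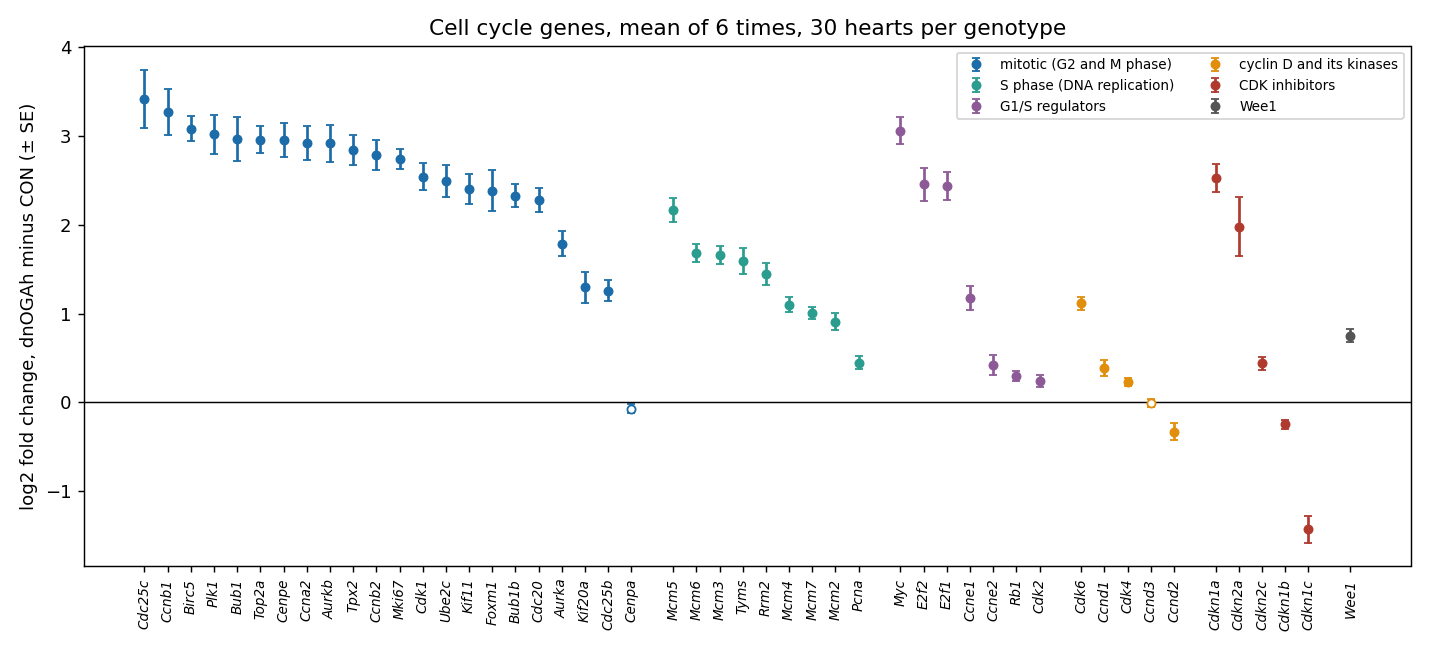
Log2 fold change (dnOGAh minus CON over the 6 times) of each of the 49 cell cycle genes, with standard error bars, ordered by role. Mitotic genes lie between 1.26 and 3.42 except Cenpa at −0.07, and the cyclin D group and CDK inhibitors lie on both sides of 0.

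Markers of other cell types moved with genotype as well. All 9 macrophage and monocyte markers were higher in dnOGAh (median log2 fold change 2.74), their summed level being 234 to 436 CPM in CON and 490 to 3135 CPM in dnOGAh (from 842 CPM without the 3 libraries). Of the activated fibroblast markers 5 of 6 were higher (median 4.29, summed 122 to 300 CPM in CON and 208 to 2204 CPM in dnOGAh, from 822 CPM without the 3 libraries), and of the lymphocyte markers 6 of 8 were higher (median 3.42, summed 0.649 to 5.05 CPM in CON and 4.40 to 53.1 CPM in dnOGAh, from 10.5 CPM without the 3 libraries). All 3 granulocyte markers tested were higher, with Ly6g at 0 in 29 CON and 28 dnOGAh libraries. Fibroblast markers comprised 6 higher and 1 lower (median 0.58, summed 1925 to 2692 CPM in CON and 2181 to 4330 CPM in dnOGAh). All 7 cardiomyocyte markers were lower (median −1.23), as were 5 of 6 endothelial markers (median −0.56, summed 427 to 823 CPM in CON and 226 to 715 CPM in dnOGAh, up to 633 and 578 CPM without the 3 libraries). Smooth muscle and pericyte markers comprised 1 higher and 3 lower of 5, erythroid markers 5 lower of 5 tested, and atrial markers 2 lower of 4. Cd3e and Cd3d of the lymphocyte list were at 0 in 11 CON libraries each, and Cthrc1 of the activated fibroblast list in 7, with none at 0 in dnOGAh. The part of these cell types in the changes of the cell cycle genes was not tested.

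Mitotic genes had the largest median log2 fold change of the role groups with more than 1 gene (2.76). Mki67, which encodes the proliferation antigen Ki-67 that coats mitotic chromosomes, was at a lowest, median and highest level of 1.89, 3.29 and 5.84 CPM in the 30 CON hearts and 6.35, 22.8 and 34.3 CPM in the 30 dnOGAh hearts. No dnOGAh heart overlapped the CON range, and without the library labelled dnOGAh ZT12 replicate 3, the lowest, dnOGAh hearts started at 13.6 CPM. Its log2 fold change was 2.74 ± 0.11 (SE, adjusted p = 1.33e-28, a 6.67-fold rise). Birc5, which encodes survivin of the chromosomal passenger complex, was likewise higher in all 30 dnOGAh hearts, with a log2 fold change of 3.08 ± 0.14 (SE, adjusted p = 1.08e-26). Across all genes tested, 0.938% had every dnOGAh heart above every CON heart.

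Top2a, the topoisomerase that untangles replicated DNA, was at 0.526, 2.45 and 9.86 CPM in CON (lowest, median and highest) and 4.70, 18.8 and 41.7 CPM in dnOGAh. Both highest values came from ZT4 replicate 4, with 4.20 CPM next in CON and 27.5 CPM next in dnOGAh, and the lowest dnOGAh value came from the library labelled dnOGAh ZT12 replicate 3, with 10.3 CPM next. In 29 of 30 dnOGAh hearts Top2a lay above the highest CON heart, with a log2 fold change of 2.95 ± 0.15 (SE, adjusted p = 3.23e-24). Cdk1, the kinase that drives entry into mitosis, was at 0.83, 1.41 and 5.48 CPM in CON and 1.77, 9.58 and 15.7 CPM in dnOGAh, and 28 dnOGAh hearts were above all CON hearts (log2 fold change 2.54 ± 0.15, SE, adjusted p = 1.09e-21). Its partner Ccnb1 (cyclin B1) was at 0, 0.366 and 2.81 CPM in CON and 1.53, 5.08 and 9.29 CPM in dnOGAh, a log2 difference of 3.27 ± 0.26 (SE, adjusted p = 8.52e-17). The groups overlapped at their edges for these 3 genes. Without the 3 libraries Cdk1 ended at 3.35 CPM in CON and started at 4.92 CPM in dnOGAh, with no overlap, and Ccnb1 still overlapped. Plk1, the polo kinase of the mitotic spindle, rose from a median of 0.625 CPM (0 to 1.54) to 5.39 CPM (0.366 to 9.74), by 3.02 ± 0.22 on the log2 scale (SE, adjusted p = 3.98e-18). Its lowest dnOGAh value came from the library labelled dnOGAh ZT12 replicate 3, and the next was 2.16 CPM, above every CON heart.

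The largest mitotic log2 fold change was that of Cdc25c, a phosphatase that activates Cdk1, at 3.42 ± 0.33 (SE, adjusted p = 7.63e-14). It was at 0, 0.0889 and 1.51 CPM in CON and 0.227, 1.42 and 3.18 CPM in dnOGAh. A total of 10 CON libraries held no count of Cdc25c, and the median library held 1.5 counts in CON and 40 in dnOGAh, so that the size of its change depends on few CON counts. The smallest mitotic rise among those past the test was that of its relative Cdc25b, at 0.565, 3.35 and 7.12 CPM in CON and 3.12, 7.77 and 12.2 CPM in dnOGAh (log2 fold change 1.26 ± 0.12, SE, adjusted p = 5.85e-14). The remaining mitotic genes ranged between Kif20a, a kinesin of cytokinesis, at 1.29 ± 0.17 and Bub1, a checkpoint kinase, at 2.97 ± 0.24 (log2, SE). Between them lay the cyclins Ccna2 (2.92) and Ccnb2 (2.78), the anaphase activators Cdc20 (2.27) and Ube2c (2.49), the checkpoint kinase Bub1b (2.33), the Aurora kinases Aurka (1.79) and Aurkb (2.91), the kinetochore motor Cenpe (2.95), the spindle genes Kif11 (2.40) and Tpx2 (2.84), and the transcription factor Foxm1 (2.38).

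Cenpa, the centromeric variant of histone H3, was the mitotic exception. It was at 41.6, 53.0 and 66.9 CPM in CON and 37.3, 51.9 and 64.7 CPM in dnOGAh, ranges that overlapped over nearly their whole width. Its log2 fold change was −0.07 ± 0.05 (SE, adjusted p = 0.22), and it passed the test at ZT8 only, where it was lower in dnOGAh (log2 fold change −0.30 ± 0.12, SE, adjusted p = 0.0423).

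**Figure D2:**
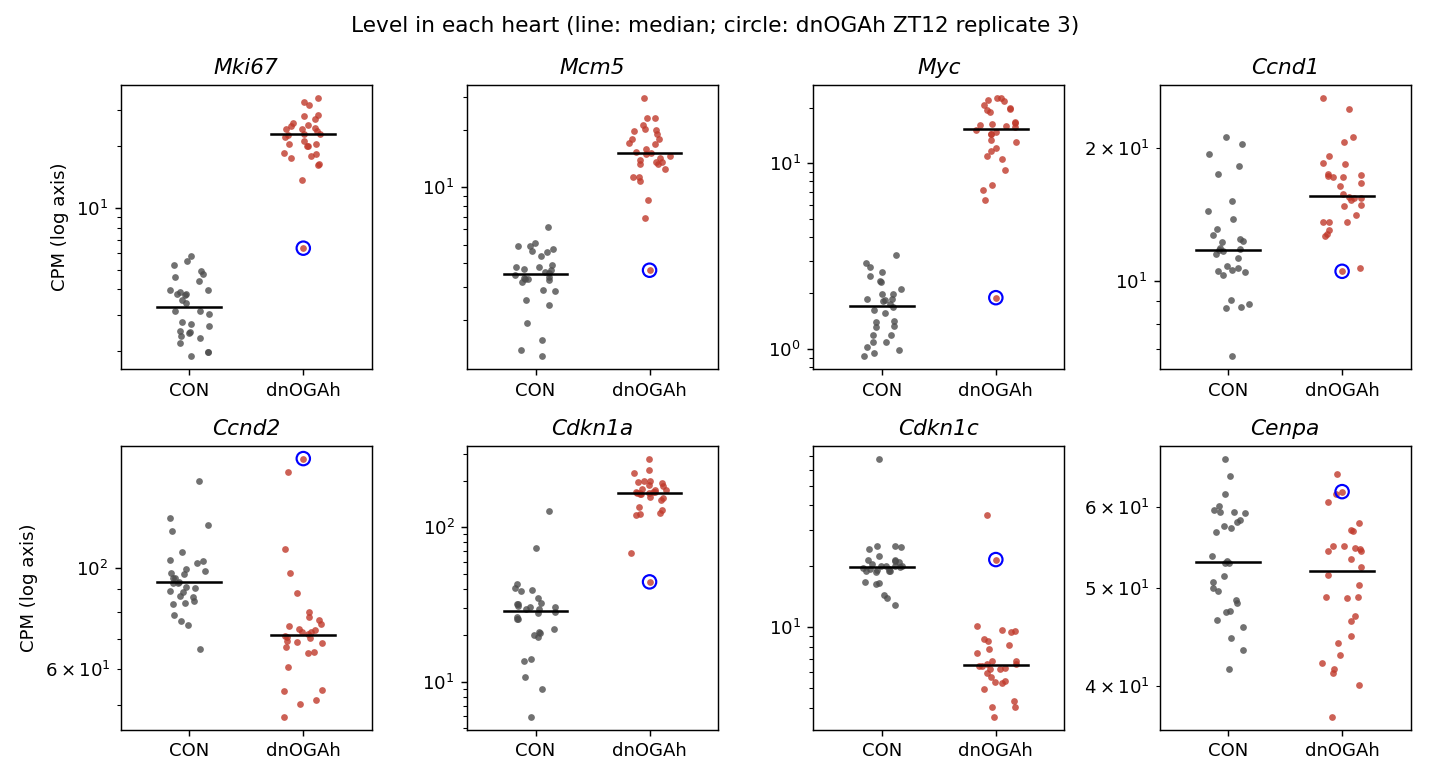
CPM (log axis) in every heart for Mki67, Mcm5, Myc, Ccnd1, Ccnd2, Cdkn1a, Cdkn1c and Cenpa, 30 CON and 30 dnOGAh hearts per gene, with a line at the median and a circle around the library labelled dnOGAh ZT12 replicate 3. Mki67 ranges do not overlap (1.89 to 5.84 CPM in CON, 6.35 to 34.3 CPM in dnOGAh), while those of Cenpa nearly coincide.

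The summed level of the 21 mitotic genes other than Cenpa was 19.3 CPM in the lowest CON heart, 27.7 CPM in the median and 61.3 CPM in the highest, and 38.8, 159 and 243 CPM in dnOGAh. The highest CON value was that of ZT4 replicate 4, with 38.0 CPM next, and the lowest dnOGAh value was that of the library labelled dnOGAh ZT12 replicate 3. Without the 3 libraries the dnOGAh hearts started at 93.0 CPM. The library labelled dnOGAh ZT12 replicate 3 was the lowest of its genotype for 19 of the 22 mitotic genes, 6 of the 9 S phase genes and 4 of the 7 G1/S regulators. With that library set aside, 16 of the 49 genes had all other dnOGAh hearts above all CON hearts, where 3.55% of all genes did. They were 12 mitotic genes (Mki67, Top2a, Ccna2, Ccnb2, Cdc20, Bub1b, Aurka, Plk1, Birc5, Kif11, Tpx2 and Ube2c), Mcm5, Mcm7, E2f1 and Myc.

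A separate list of 35 further mitotic genes held 32 that were higher in dnOGAh and 1 that was lower, with a median log2 fold change of 2.33. The largest rises were those of Hmmr, a spindle-associated hyaluronan receptor (3.49 ± 0.20, SE, adjusted p = 3.12e-22), and Kif2c, a microtubule-depolymerising kinesin (3.39 ± 0.28, SE, adjusted p = 2.81e-16). Cenpf, a kinetochore protein, was lower, at 21.3 ± 6.68 CPM in CON and 7.95 ± 4.20 CPM in dnOGAh (SD, n = 30; log2 fold change −1.45 ± 0.14, SE, adjusted p = 8.25e-14). Pttg1, or securin (−0.07 ± 0.32), and the kinetochore gene Spc24 (−0.10 ± 0.12) did not pass the test.

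All 9 S phase genes were higher in dnOGAh hearts, by less than most mitotic genes (median log2 fold change 1.44, range 0.45 to 2.16). Mcm5, a subunit of the MCM helicase that unwinds DNA at replication origins, was at 1.3, 3.51 and 6.21 CPM in CON (lowest, median and highest) and 3.67, 15.1 and 29.5 CPM in dnOGAh. In 29 dnOGAh hearts it lay above every CON heart, with the exception of the library labelled dnOGAh ZT12 replicate 3. The next lowest dnOGAh value was 6.92 CPM in ZT4 replicate 4, followed by 8.57 CPM. The log2 fold change of Mcm5, 2.16 ± 0.14 (SE, adjusted p = 1.43e-20), was the largest of the group. The other 5 MCM subunits rose by between 0.91 (Mcm2) and 1.68 (Mcm6) on the log2 scale, with Mcm3 at 1.66, Mcm4 at 1.10 and Mcm7 at 1.01. Rrm2, the regulated subunit of ribonucleotide reductase, was at 1.10, 2.75 and 5.11 CPM in CON and 2.14, 7.48 and 14.2 CPM in dnOGAh (log2 fold change 1.44 ± 0.12, SE, adjusted p = 6.78e-16). Its groups overlapped at the edges. They did so also without the library labelled dnOGAh ZT12 replicate 3, the lowest dnOGAh heart, where dnOGAh hearts started at 4.65 CPM.

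Pcna, the sliding clamp of DNA polymerase, showed the smallest S phase change. It was at 14.2, 32.8 and 41 CPM in CON and 16.2, 44.3 and 56.6 CPM in dnOGAh, ranges that overlapped widely, with a log2 fold change of 0.45 ± 0.07 (SE, adjusted p = 1.68e-07, a 1.36-fold rise). Both lowest values came from ZT4 replicate 4, with 26.1 CPM next in CON. In dnOGAh the next was 31.2 CPM in the library labelled dnOGAh ZT12 replicate 3, followed by 33.3 CPM. Tyms, thymidylate synthase, rose by 1.59 ± 0.15 on the log2 scale (SE, adjusted p = 1.96e-14). Its highest CON value of 24.1 CPM came from ZT4 replicate 4, a library that was the highest CON heart for 21 of the 49 genes, and the next CON heart was at 4.85 CPM.

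Among 25 further S phase genes, 24 were tested, of which 18 were higher and 2 lower in dnOGAh (median log2 fold change 0.80). Clspn, the replication checkpoint adaptor claspin (2.77 ± 0.25, SE, adjusted p = 8.43e-15), and Uhrf1, which carries DNA methylation through replication (2.59 ± 0.16, SE, adjusted p = 1.50e-20), rose the most. Gmnn, or geminin, which blocks re-licensing of origins, fell by 0.93 on the log2 scale (SE 0.08, adjusted p = 2.93e-16). Ung, the uracil-DNA glycosylase of base excision repair, fell by 0.59 (SE 0.10, adjusted p = 1.48e-06).

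The 7 G1/S regulators were all higher in dnOGAh hearts but by unequal amounts. Myc, the transcription factor that promotes growth and entry into the cycle, was at 0.919, 1.71 and 3.21 CPM in CON and 1.89, 15.4 and 22.6 CPM in dnOGAh, a log2 fold change of 3.05 ± 0.15 (SE, adjusted p = 5.44e-25) or 8.30-fold. The lowest dnOGAh value, in the library labelled dnOGAh ZT12 replicate 3, fell within the CON range. The next was 6.33 CPM in ZT4 replicate 4, followed by 7.21 CPM. E2f1, an activating E2F factor, was at 0.0949, 1.49 and 2.34 CPM in CON and 1.89, 7.10 and 10.8 CPM in dnOGAh (log2 fold change 2.43 ± 0.16, SE, adjusted p = 3.92e-20), with 5.08 CPM as the lowest without the library labelled dnOGAh ZT12 replicate 3, and its relative E2f2 rose by a similar 2.45 ± 0.18 (SE, adjusted p = 1.01e-17). Ccne1, or cyclin E1, was at 0.763, 1.89 and 3.85 CPM in CON and 1.04, 4.46 and 7.96 CPM in dnOGAh, with a log2 fold change of 1.18 ± 0.14 (SE, adjusted p = 4.45e-11). Its lowest dnOGAh value came from ZT4 replicate 4, followed by the library labelled dnOGAh ZT12 replicate 3, both within the CON range. The next was 2.51 CPM.

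Other G1/S regulators differed by less than 1.5-fold, with wide overlap between genotypes. Cdk2, the kinase bound by cyclin E, was at 8.09, 10.9 and 14.3 CPM in CON and 6.84, 13.7 and 18.4 CPM in dnOGAh (log2 fold change 0.24 ± 0.07, SE, adjusted p = 0.0016), the smallest change of the group. Rb1, the retinoblastoma protein that holds E2F factors inactive, was at 14.5, 18.2 and 27.8 CPM in CON and 17.2, 23.3 and 31.8 CPM in dnOGAh (log2 fold change 0.30 ± 0.06, SE, adjusted p = 8.25e-06). Ccne2, or cyclin E2, rose by 0.42 ± 0.11 on the log2 scale (SE, adjusted p = 0.000691). Of 14 further E2F, pocket protein and MuvB genes tested, 8 were higher and 4 lower, against 38.8% and 31.9% of all genes tested. Mybl2, or B-Myb (2.34 ± 0.22, SE, adjusted p = 6.26e-14), and the repressor E2f8 (1.42 ± 0.16, SE, adjusted p = 3.84e-11) rose the most. Tfdp2, a dimerisation partner of E2F factors (−1.16 ± 0.07, SE, adjusted p = 2.73e-22), and Lin52, a MuvB subunit (−0.73 ± 0.08, SE, adjusted p = 5.45e-12), fell the most.

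The cyclin D group did not move together, since 3 of its 5 genes were higher in dnOGAh hearts, 1 was lower and 1 did not pass the test. Of all genes tested, 38.8% were higher and 31.9% lower. Cdk6, a kinase activated by D-type cyclins, was at 7.25, 11.8 and 19.0 CPM in CON and 16.2, 25.1 and 37.2 CPM in dnOGAh, and 28 dnOGAh hearts lay above every CON heart (log2 fold change 1.11 ± 0.07, SE, adjusted p = 1.04e-19). Cdk4, the other kinase of D-type cyclins, was at 32.9, 58.4 and 67.7 CPM in CON and 41.7, 67.7 and 82.5 CPM in dnOGAh (log2 fold change 0.23 ± 0.05, SE, adjusted p = 4.37e-05). The dnOGAh median of Cdk4 thus equalled the highest CON value to 3 digits. Ccnd1, or cyclin D1, was at 6.76, 11.8 and 21.1 CPM in CON and 10.5, 15.6 and 26.0 CPM in dnOGAh (log2 fold change 0.39 ± 0.09, SE, adjusted p = 6.68e-05).

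Ccnd2, or cyclin D2, went the other way. It was at 66.4, 92.9 and 154 CPM in CON and 47.2, 71.2 and 173 CPM in dnOGAh, a log2 fold change of −0.33 ± 0.09 (SE, adjusted p = 0.00128). The upper end of the dnOGAh range was made by the library labelled dnOGAh ZT12 replicate 3 at 173 CPM and by dnOGAh ZT4 replicate 4 at 162 CPM, without which it ended at 109.8 CPM. Ccnd3, or cyclin D3, was at 36.9, 54.7 and 63.9 CPM in CON and 35.9, 54.5 and 62.8 CPM in dnOGAh (log2 fold change −0.01 ± 0.04, SE, adjusted p = 0.88). The summed level of the 5 genes overlapped between genotypes, at 197 to 275 CPM in CON and 203 to 311 CPM in dnOGAh. A list of 12 further cyclins and CDK regulators held 5 higher and 5 lower, against 38.8% and 31.9% of all genes tested. Its median log2 fold change was 0.00. Skp2, which targets CDK inhibitors for degradation (1.72 ± 0.17, SE, adjusted p = 6.28e-13), and Pkmyt1, a kinase that restrains Cdk1 (0.93 ± 0.13, SE, adjusted p = 4.48e-09), rose the most. Fbxw7, which targets cyclin E and Myc for degradation (−0.72 ± 0.11, SE, adjusted p = 5.43e-08), and Ccnh, the cyclin of the CDK-activating kinase (−0.58 ± 0.06, SE, adjusted p = 1.44e-13), fell the most.

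CDK inhibitors also moved in both directions, with 3 of 5 higher and 2 lower in dnOGAh hearts, against 38.8% and 31.9% of all genes tested. Cdkn1a, which encodes the p53-induced inhibitor p21, was at 5.94, 28.8 and 127 CPM in CON and 44.3, 168 and 278 CPM in dnOGAh, a log2 fold change of 2.52 ± 0.16 (SE, adjusted p = 9.95e-21) or 5.73-fold. In 25 dnOGAh hearts it lay above every CON heart. The highest CON heart was ZT4 replicate 4, with 73.0 CPM next, and the lowest dnOGAh value was in the library labelled dnOGAh ZT12 replicate 3, with 68.2 CPM next. Cdkn2a, the locus of an INK4 inhibitor and of the p53 stabiliser ARF, was at 0, 0.111 and 0.675 CPM in CON and 0.230, 0.718 and 1.88 CPM in dnOGAh (log2 fold change 1.98 ± 0.33, SE, adjusted p = 4.77e-07). It was near the limit of these libraries, with a median of 2 counts in CON, where 8 libraries held none, and 20 in dnOGAh. Cdkn2c, an inhibitor of Cdk4 and Cdk6, was at 8.13, 12.5 and 15.2 CPM in CON and 7.39, 16.9 and 22.2 CPM in dnOGAh (log2 fold change 0.44 ± 0.07, SE, adjusted p = 3.88e-07). Its lowest dnOGAh value came from the library labelled dnOGAh ZT12 replicate 3, followed by ZT4 replicate 4 at 9.01 CPM, with 13.3 CPM next.

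Cdkn1c, the imprinted inhibitor p57, fell the most of the 49 genes. It was at 12.9, 19.9 and 67.9 CPM in CON and 3.61, 6.52 and 35.7 CPM in dnOGAh, where 28 hearts lay below the lowest CON heart. The 2 others were ZT4 replicate 4 at 35.7 CPM and the library labelled dnOGAh ZT12 replicate 3 at 21.6 CPM, and the highest CON heart was again ZT4 replicate 4, with 25.2 CPM next. Its log2 fold change was −1.43 ± 0.15 (SE, adjusted p = 9.64e-13), which is 2.69-fold lower. Cdkn1b, or p27, which inhibits cyclin E complexes, was at 21.2, 29.4 and 37.1 CPM in CON and 20.3, 24.7 and 33.6 CPM in dnOGAh, with a log2 fold change of −0.25 ± 0.05 (SE, adjusted p = 1.99e-05) and wide overlap. Of 16 further CDK inhibitors and p53 targets, 13 were higher and 2 lower (median log2 fold change 0.65). Cdkn3, a phosphatase that acts on CDKs (3.06 ± 0.27, SE, adjusted p = 7.73e-15), and Phlda3, a p53 target that restrains Akt (2.51 ± 0.11, SE, adjusted p = 1.59e-27), rose the most, and Ccng1 (−0.84 ± 0.08, SE, adjusted p = 4.50e-14) and Sesn1 (−0.58 ± 0.07, SE, adjusted p = 3.44e-11), both p53 targets as well, fell the most.

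Several of these genes share exon bases with a gene on the opposite strand in the GENCODE M21 annotation, and the strand setting of the counting was not given in the sources used here. The overlap was 30.7% of the exon bases of Cdkn1c (with Gm44732), 29.3% of Kif20a (with Cdc23), 23.4% of Ccnd1 (with LTO1), 22.8% of Ube2c (with Tnnc2, which encodes a skeletal muscle troponin C), 19.7% of Cdk4 (with Tspan31) and 17.4% of Ccne2 (with Ints8). Their values are uncertain for this reason, and the size of any effect on the counts was not tested. Cenpa shared none.

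At single times, where 5 dnOGAh hearts were set against 5 CON hearts, between 36 and 41 of the 49 genes were higher in dnOGAh. The count was 39 at ZT0, 38 at ZT4, 40 at ZT8, 36 at ZT12, 36 at ZT16 and 41 at ZT20, against 23.7%, 18.5%, 24.9%, 18.8%, 23.1% and 23.6% of all genes tested, respectively. At ZT12 it was 41 when the library labelled dnOGAh ZT12 replicate 3 was set aside. Between 1 and 3 genes were lower at each time (2, 1, 3, 1, 1 and 2 in the same order), against 18.9%, 14.2%, 21.2%, 13%, 17.7% and 16.3% of all genes. Mitotic genes were higher in 21 of 22 cases at ZT0, ZT4, ZT8 and ZT20 and in 20 at ZT12 and ZT16, where Kif20a did not pass the test. S phase genes were higher in 8 or 9 of 9, and Pcna passed at 3 of the 6 times.

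The smaller changes passed the test at few single times. Ccne2 passed at ZT12 only, Cdk2 and Ccnd2 at ZT8 only, Cdk4 at 1 time, Ccnd1 at ZT0 and ZT20, Rb1 at 2 times and Cdkn1b at 2 times. Cdk6, Cdkn1a and Wee1 were higher, and Cdkn1c was lower, at all 6 times. The log2 fold change of Cdkn1a ranged from 1.95 ± 0.38 at ZT4, where the CON hearts spread from 20.1 to 127 CPM, to 3.64 ± 0.41 at ZT8, where they stood at 5.94 to 20.7 CPM (SE). Myc ranged from 2.44 ± 0.36 at ZT4 to 3.57 ± 0.37 at ZT8 and Cdkn1c from −1.10 ± 0.36 at ZT4 to −1.81 ± 0.37 at ZT0 (SE). No gene among the 49, and 0% of all genes tested, passed edgeR's quasi-likelihood test of genotype by time (adjusted p under 0.05), so that a difference between times was not shown. Before adjustment 465 of all genes did, and of the 49 genes Cdkn1a alone did (unadjusted p = 0.0316, adjusted p = 1). With DESeq2 and limma-voom, 0 of the 49 passed after adjustment, with 5 and 1 of all genes.

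**Figure D3:**
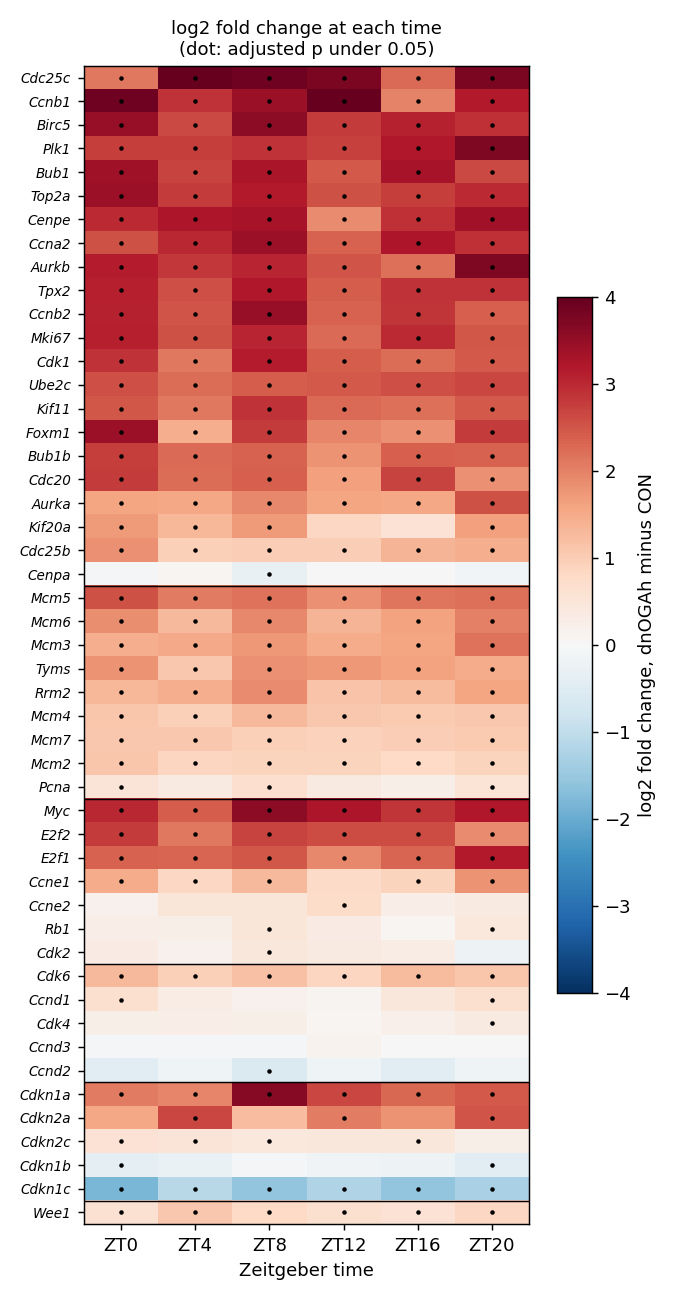
Log2 fold change (dnOGAh minus CON, colour scale) of the 49 genes at each of the 6 times, with a dot where the adjusted p was under 0.05. Mitotic and S phase genes are higher at nearly every time, and dots in the cyclin D group are few except for Cdk6.

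Of the 49 genes, 2 had a 24 h oscillation in CON hearts, Wee1 and Cdc25b, and 0 did in dnOGAh hearts by the same test, JTK_CYCLE with q under 0.05. The background was 2.13% of all genes in CON and 0.171% in dnOGAh. Wee1 stood at 7.99 ± 1.17 CPM at ZT0, 5.76 ± 1.79 at ZT4, 10.3 ± 2.24 at ZT8, 12.5 ± 2.71 at ZT12, 13.9 ± 1.74 at ZT16 and 7.46 ± 1.45 at ZT20 in CON (SD, n = 5 each). In dnOGAh hearts the same times gave 12.2 ± 1.76, 11.7 ± 1.56, 17.8 ± 3.32, 19.5 ± 7.69, 20.6 ± 3.56 and 13.2 ± 0.976 CPM (SD, n = 5 each). Wee1 was thus higher in dnOGAh at every time, with its lowest mean at ZT4 and its highest at ZT16 in both genotypes. Over the day it was at 3.63, 8.72 and 16.0 CPM in CON (lowest, median and highest) and 9.82, 14.4 and 31.4 CPM in dnOGAh (log2 fold change 0.75 ± 0.08, SE, adjusted p = 8.58e-13).

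The 24 h amplitude of Wee1 was 0.56 ± 0.09 in CON and 0.42 ± 0.08 in dnOGAh (log2, SE), with peaks at 13.7 h and 13.1 h after lights on. The JTK q from the exact Jonckheere-Terpstra null was 0.00905 in CON and 0.209 in dnOGAh, the unadjusted p in dnOGAh being 0.000716. Without the library labelled dnOGAh ZT12 replicate 3 the q in dnOGAh was 0.0333. With all libraries, edgeR's test of differences between the 6 times gave an adjusted p of 1.92e-05 in CON and 0.00677 in dnOGAh. In CON, the q was 0.0648, 0.0986 and 0.164 when the 6 libraries numbered replicate 2, replicate 3 or replicate 5 were left out. In these settings the number of all genes with an oscillation in CON also fell, from 386 to 164, 139 and 104, respectively. The difference in rhythm between genotypes was itself not past the test (unadjusted p = 0.485), so that a loss of the Wee1 rhythm in dnOGAh was not shown.

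Cdc25b had a 24 h amplitude of 0.70 ± 0.15 in CON (log2, SE), with a peak at 8.69 h (JTK q = 0.0258 by the exact null). In dnOGAh its amplitude was 0.29 ± 0.10 (log2, SE), with a JTK q of 0.918 and an unadjusted JTK p of 0.0164. The unadjusted p of the edgeR test of a difference in rhythm was 0.0799, so that a loss of this rhythm in dnOGAh was not shown. Its call in CON was lost when any 1 of 5 CON libraries was left out (ZT8 replicate 1, 2 or 4 and ZT20 replicate 3 or 4, q from 0.0510 to 0.0634). Cdkn1a had an amplitude of 0.62 ± 0.19 in CON with a peak at 22 h and a q of 0.113, which was 0.0349 without CON ZT4 replicate 4. No gene of the 49 passed the edgeR test of a difference in rhythm, which 0.0166% of all genes passed, and 604 of all genes had an unadjusted p under 0.05. Of the 49 genes Cdkn1b alone did (unadjusted p = 0.0297, adjusted p = 1). DESeq2 and limma-voom also gave 0 of the 49, with 3 and 2 of all genes. As a reference for these amplitudes, the clock gene Arntl (Bmal1) had a log2 amplitude of 2.26 in CON and 1.34 in dnOGAh, Per2 of 1.21 and 0.95, and the clock output Dbp of 2.02 and 1.59.

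**Figure D4:**
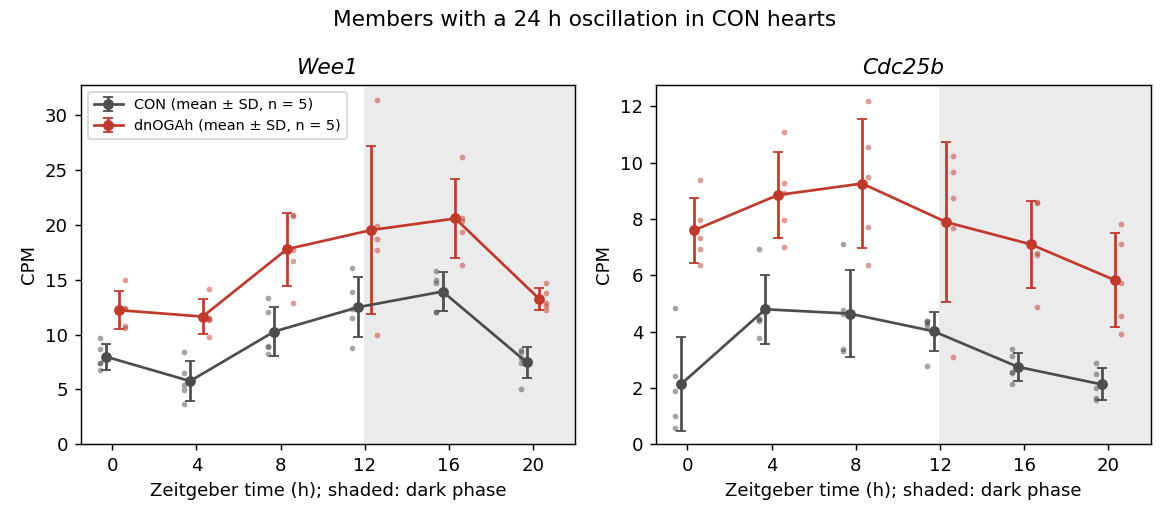
Mean CPM ± SD (n = 5 hearts) of Wee1 and Cdc25b against zeitgeber time in CON and dnOGAh hearts, with the dark phase shaded. Wee1 is lowest at ZT4 (5.76 CPM in CON, 11.7 CPM in dnOGAh) and highest at ZT16 (13.9 and 20.6 CPM) in both genotypes.

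Hearts of the same genotype and time differed in how far these genes were raised, and within dnOGAh the replication and mitotic genes differed together. With log2 CPM centred on each time, the median correlation between pairs of S phase genes was 0.82 over the 30 dnOGAh hearts (36 pairs, 0.73 without the 3 libraries) and 0.05 over the 30 CON hearts. For the 231 pairs of mitotic genes it was 0.71 in dnOGAh (0.52 without the 3 libraries) and 0.12 in CON. Pairs within the G1/S regulators (0.30, or 0.07 without the 3 libraries), the cyclin D group (−0.12) and the CDK inhibitors (−0.02) had lower medians in dnOGAh. These are descriptions, since the genes share libraries and depth, and counts were lower in CON.

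Correlations with 4 other transcripts were computed for Mki67, Mcm5, Ccnd1 and Cdkn1a within each genotype over 30 hearts, 32 relations in all, with a two-sided permutation test within times and Benjamini-Hochberg adjustment. In dnOGAh hearts, Csf1r, which encodes the receptor that maintains macrophages, rose and fell with Mcm5 (r = 0.832, rho = 0.690, permutation p = 8e-05 and 0.00031, adjusted p = 0.00256 and 0.00992), with Cdkn1a (r = 0.730, rho = 0.620, permutation p = 0.00063 and 0.00125, adjusted p = 0.0101 and 0.0133) and with Mki67 (r = 0.676, rho = 0.594, permutation p = 0.00314 and 0.00185, adjusted p = 0.0335 and 0.0148). Without the 2 hearts farthest from the median of Csf1r, r was 0.669, 0.614 and 0.605 for Mcm5, Cdkn1a and Mki67, respectively, and without the 3 libraries it was 0.60, 0.574 and 0.586 (each with a permutation adjusted p of 0.0491). In CON hearts, Csf1r passed the test with none of the 4 genes. The difference between genotypes was not tested.

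Cdkn1a also followed Nppa, the atrial natriuretic peptide gene, in dnOGAh hearts (r = 0.596, rho = 0.572, permutation p = 0.00587 and 0.00122, adjusted p = 0.0376 and 0.0133), with an r of 0.445 without the 2 farthest hearts and of 0.397 without the 3 libraries, where the permutation adjusted p was 0.37. The level of Oga was related to none of the 4 genes in dnOGAh hearts by this test (r from 0.233 for Cdkn1a to 0.448 for Ccnd1). Without the 2 hearts farthest from the median of Oga, r was −0.224 for Mki67, −0.082 for Mcm5, −0.303 for Cdkn1a and 0.327 for Ccnd1. In CON, Mcm5 passed with Oga by r (0.511, permutation p = 0.00511, adjusted p = 0.0376) and not by rho (0.417, permutation p = 0.0285, adjusted p = 0.114), with an r of 0.434 without the 2 farthest hearts and a permutation adjusted p of 0.0536 without the 3 libraries. Postn, a marker of activated fibroblasts, passed with none, its largest r being 0.672 with Mcm5 in dnOGAh (permutation p = 0.00941, adjusted p = 0.0502). That relation lay at the threshold, with a permutation adjusted p of 0.0476 at a prior count of 0.5. It did not pass by rho (0.447, permutation p = 0.026, adjusted p = 0.114), and its r was 0.32 without the 2 farthest hearts. Ccnd1 passed with none of the 4 transcripts in either genotype.

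**Figure D5:**
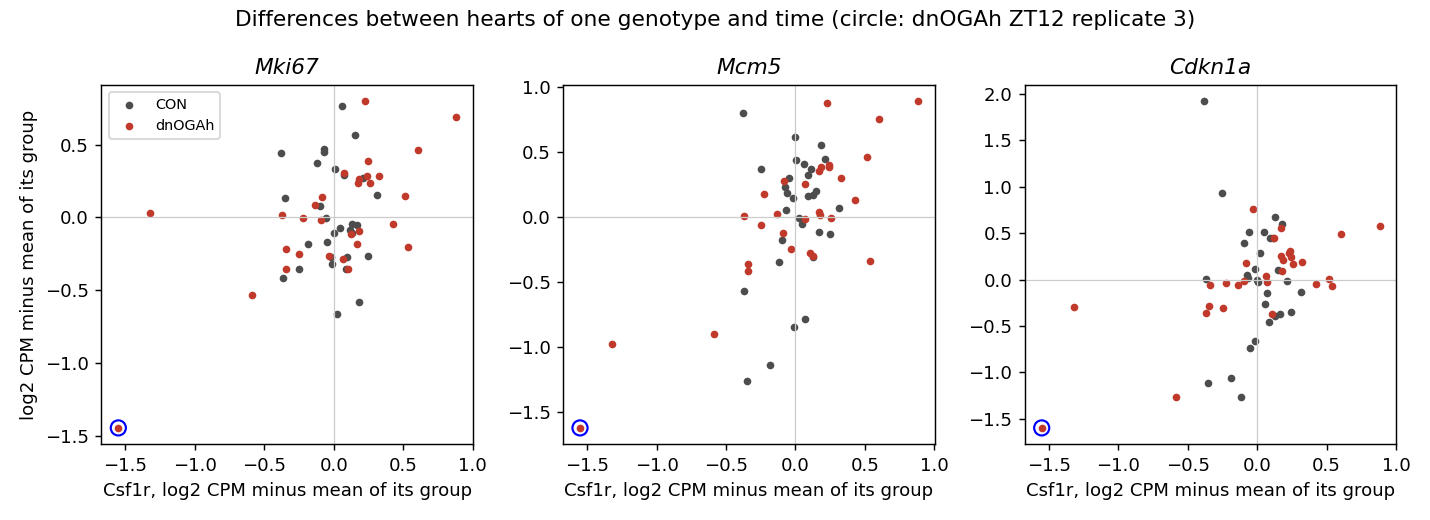
Mki67, Mcm5 and Cdkn1a against Csf1r, each as log2 CPM minus the mean of the heart's genotype and time, for 30 CON and 30 dnOGAh hearts. In dnOGAh the points rise with Csf1r (r = 0.676, 0.832 and 0.730), and in CON they do not pass the test.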

How the data were processed

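RNA-seq libraries of 60 mouse hearts, in 12 groups of 5 (genotype by time), were analysed. The authors deposited whole-number counts per Ensembl gene, made with Trim Galore 0.6.7, STAR 2.7.10b and HTSeq 2.0.2 on GRCm39 as named in the submitters' processing notes; the annotation release and strand setting were not given in the sources used here. A label of ZT24 was read as ZT0. Rows that name no gene (5.15% no feature, 5.76% ambiguous and 19.8% not uniquely aligned, as shares of all rows' counts) were left out. Symbols came from a GRCm38 name table, in which 52093 of 53700 rows had a match. Genes were kept by the edgeR filter with a minimum count of 10 (18119 genes).

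Counts were tested with edgeR 4.0.16 (quasi-likelihood, trimmed mean of M-values, no block) in R 4.3.3. SE is the absolute log2 fold change divided by the square root of the F statistic. JTK_CYCLE was run at 24 h with 6 lags in steps of 2 h and a Bonferroni factor over lags, without allowing for ties of the cosine at a lag, followed by Benjamini-Hochberg q values. Amplitudes came from a cosinor on log2 CPM with a prior count of 2, and permutation tests used 100000 permutations. The scripts were tested on simulated data. The members and lists were chosen with earlier results of these data known. Statistics are given in full for key genes of each role, for the largest and smallest change in each role group, and for any gene past a rhythm test. For the further lists, the 2 largest rises and falls past the test are named. Alternatives were DESeq2 1.42.0 (size factors and test), limma 3.58.1 voom, other filters, libraries left out, a replicate block and totals without the highest genes. The number of identical library pairs was 0.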

Additional observations from a re-analysis of the deposited data

Results flagged for a closer look

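The summed level of each role group was examined for a heart that stood far from the other 4 of its genotype and time, by Dixon's ratio of gap to range at a critical value of 0.71. Of 72 sets of 5 hearts, 5 held such a heart, where chance gives about 1 in 20. For the 5 CDK inhibitors, the heart CON ZT4 replicate 4 stood at 226 CPM with 95.0 CPM next, CON ZT0 replicate 4 at 138 CPM with 98.5 CPM next, and dnOGAh ZT0 replicate 3 at 247 CPM with 214 CPM next. The library labelled dnOGAh ZT12 replicate 3 stood below the others for the CDK inhibitors, at 98.9 CPM with 210 CPM next, and above them for the cyclin D group, at 308 CPM with 244 CPM next. In the same library Oga was at 70.1 CPM and the summed cardiomyocyte markers were at 87295 CPM, and CON ZT4 replicate 4 had 77.6% mitochondrial counts. The part of these values in the outlying sums was not tested.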

How the results depend on the processing

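The genotype calls over the day were stable: over 49 genes and 14 settings, all 684 log2 fold changes that could be computed kept their side of the threshold, as they did with each of the 60 libraries left out, and all genes but Ccnd3 kept their direction. Ccnd3, which passed in none, ranged from −0.03 to 0.02 around 0, the latter with DESeq2 size factors. The number of genes higher ranged from 42 to 44 over all settings, the lower numbers coming with a filter of a mean of at least 1 CPM, and the number lower stayed at 3. Without a filter on low counts the median log2 fold change of all genes moved by 0.17. Counts with any 1 replicate number left out ranged from 37 to 38 genes higher at ZT0, 33 to 42 at ZT4, 38 to 39 at ZT8, 32 to 37 at ZT12, 32 to 35 at ZT16 and 36 to 42 at ZT20. The count of oscillating genes was less stable. In CON (2 genes) it was 1 at q under 0.01, 0 to 1 with a replicate number left out, and 1 without CON ZT8 replicate 1, 2 or 4 or CON ZT20 replicate 3 or 4, but 3 (with Cdkn1a, q = 0.0349) without CON ZT4 replicate 4. In dnOGAh (0 genes) it was 1 (Wee1) with the library labelled dnOGAh ZT12 replicate 3 set aside, without it and replicate 4 at ZT4 of both genotypes (the 3 libraries), with the edgeR cosinor and with the edgeR test of the 6 times. Related to a marker by the test, 1 relation in CON became 0 without the 3 libraries, and 4 in dnOGAh became 9 when values were not centred on time, among them those of Mki67, Mcm5 and Cdkn1a with Postn (r = 0.580, 0.673 and 0.511). The cause was not tested. Of 30 pairs of libraries with the same time and replicate number, 5 deviated together with a correlation over 0.1 (range −0.10 to 0.55, median 0.03, highest for replicate 4 at ZT4), so that the numbers were not taken as a pairing. With the replicate block, 44 genes were higher and 3 lower, the block changed no genotype call, and the edgeR test of the 6 times again gave 1 oscillating gene in dnOGAh (Wee1, adjusted p = 0.0104). Depth limited Cdc25c and Cdkn2a the most, whose median CON library held 1.5 and 2 counts.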
